A study of Homo sapiens with 9 samples.

Results

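Levels of 10 transcripts that belong to the ubiquinone and tetrahydrobiopterin branches of ferroptosis defence were examined in A375 cells given metformin. The members were taken by gene symbol from the deposited table (AIFM2, DHODH, GCH1, PTS, SPR, QDPR, PDSS1, PDSS2, COQ2 and COQ8A). Each symbol matched 1 row, which gave 10 of the 37118 genes listed. A375 is an established human melanoma cell line with an activating BRAF mutation, and the labels give its genotype as WT. Cells received metformin, a biguanide antidiabetic drug that acts on respiratory complex I, at 0, 20 or 40 mM, with 3 RNA-seq libraries per dose and 9 in all. The sources used here do not state how long cells were treated. All 9 libraries come from 1 cell line, and nothing in the labels says that libraries of 1 dose came from separate cultures, so the p-values measure only how these libraries vary, and that variation may be technical.

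Ferroptosis is a form of cell death driven by iron-dependent peroxidation of membrane lipids, and cells hold it off partly with small lipophilic radical traps. One of these is ubiquinol, the reduced form of ubiquinone. AIFM2 encodes FSP1, which regenerates ubiquinol at the plasma membrane, and DHODH does so in the inner mitochondrial membrane while it oxidises dihydroorotate for pyrimidine synthesis. PDSS1 and PDSS2 are the subunits of the enzyme that builds the polyprenyl tail of ubiquinone, COQ2 joins that tail to the ring, and COQ8A is an atypical kinase-like protein of the mitochondrial synthesis complex. The other trap is tetrahydrobiopterin, made from GTP in succession by GCH1, PTS and SPR and recycled by QDPR.

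RefSeq promoter windows (GRCh38.p14, 250 bases before to 50 bases after the RefSeq gene start) were matched for 9 of the 10 genes. This start matches the gene position in the deposited table for PDSS1, PDSS2 and QDPR. For the other matched genes it lies inside the gene as deposited, and for COQ8A the whole window does (chr1:226940044-226940343). The 250 bases upstream of PDSS1 (chr10:26697451-26697700, plus strand) and of PDSS2 (chr6:107459565-107459814, minus strand) are shown because these subunits of 1 enzyme moved in opposite directions. Capitals mark the GC box GGGCGG read on either strand.
PDSS1: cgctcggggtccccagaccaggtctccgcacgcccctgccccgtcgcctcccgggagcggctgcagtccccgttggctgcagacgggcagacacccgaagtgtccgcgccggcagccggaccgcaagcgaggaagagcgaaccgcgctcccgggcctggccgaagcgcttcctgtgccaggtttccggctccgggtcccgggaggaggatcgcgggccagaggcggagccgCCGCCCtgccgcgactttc
PDSS2: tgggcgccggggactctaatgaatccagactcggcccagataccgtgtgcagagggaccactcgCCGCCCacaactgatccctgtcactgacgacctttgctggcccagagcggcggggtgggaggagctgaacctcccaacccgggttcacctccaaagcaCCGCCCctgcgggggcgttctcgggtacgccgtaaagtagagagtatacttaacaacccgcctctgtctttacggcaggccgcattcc
GC made up 74.8% of the PDSS1 stretch and 62.4% of the PDSS2 stretch. The GC box occurred in 42.6% of the upstream stretches of 250 bases from 35116 promoter windows, so its presence does not set either gene apart.

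Short sites are given for AIFM2, which did not pass the test at either dose, and for DHODH, which had the largest fall. The AIFM2 window held the antioxidant response element TGACNNNGC, the motif bound by NRF2, on the strand opposite to the gene. It lay at bases -22 to -14 from the RefSeq start. The DHODH window held the E-box CACGTG, the motif bound by MYC and related factors, at bases -159 to -154 from the RefSeq start. Capitals mark these motifs in 30 bases around each (AIFM2 at chr10:70132829-70132858, minus strand, and DHODH at chr16:72008573-72008602, plus strand).
AIFM2: ccagcacgagtGCTGAGTCAcgccccgccc
DHODH: gccgctactgcgCACGTGcacccaaccaga
In the deposited table DHODH begins at 72008588, within the DHODH stretch shown. AIFM2 ends at 70132934 there, so its site lies inside the gene as deposited. Among all promoter windows 13.3% held the antioxidant response element and 7.26% the E-box. The C/EBP-ATF response element TGATGNAA, the palindrome TGACGTCA of the cAMP response element, its variant TGACGTAA, the E2F site TTTNGCGC and the CCAAT box were also searched on both strands. Of these, the cAMP response element was found across the RefSeq start of COQ2 (bases -4 to 4), which lies inside the gene as deposited. CCAAT boxes were found in DHODH, PTS, PDSS2 (after its start, bases 7 to 11), COQ2 and COQ8A. The cAMP response element TGACGTCA occurred in 1.85% of all promoter windows and the CCAAT box in 34.6%. A match is a match of letters only.

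Total counts ran from 65738242 to 75629413 per library. Replicate 3 of 40 mM stood apart from its group. It had the lowest total and the highest share of mitochondrial transcripts (4.36%, where its partners had 3.01% and 3.27%), and its counts differed more from those of replicates 1 and 2 (chi-square per gene 67.3 and 55.1) than those 2 did from each other (17.7). Of 9 melanoma markers 4 averaged over 1 FPKM (fragments per kilobase of exon, scaled to library depth). These were SOX10, the neural crest transcription factor, at 70.7 to 114 FPKM, MITF at 2.43 to 3.40, S100B and S100A1. At 0, 20 and 40 mM S100B averaged 10.2, 8.78 and 5.98 FPKM and S100A1 8.29, 9.46 and 8.61. TFAP2A and the pigment genes PMEL, MLANA, TYR and DCT averaged under 1 FPKM, so the labelled cell type rested on SOX10 and its companions without the pigment markers. Of 12 markers of other cell types 11 were analysed and 3 averaged over 1 FPKM (CD68, KRT14 and LUM). The sum of all 11 moved with dose (14.6 to 15.8 FPKM untreated, 21.7 to 25.2 with 20 mM, 31.0 to 37.8 with 40 mM). CD68 carried most of that move (3.64 to 4.38, 10.8 to 12.9 and 15.0 to 22.1 FPKM), with LUM at 2.93 to 3.59, 3.60 to 4.69 and 5.52 to 6.49. KRT14 was at 6.83 to 7.69, 6.02 to 6.92 and 8.22 to 8.98 FPKM, highest at 40 mM. The other 8 stayed under 0.5 FPKM, CDH5 among them with means of 0.0961, 0.107 and 0.396. PTPRC, which defines white blood cells, had 4 counts in replicate 3 of 0 mM and 0 in the other 8 libraries, and the part of these markers in the results was not tested.

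All 10 genes averaged over 1 FPKM across the 9 libraries and were tested. At 0 mM the order by mean FPKM ± SD (n = 3 here and below) was SPR (23.7 ± 1.51), QDPR (21.8 ± 0.714), PDSS1 (12.3 ± 0.111), PTS (11.9 ± 0.847), AIFM2 (6.52 ± 0.275), COQ8A (5.51 ± 0.235), COQ2 (5.01 ± 0.0633), PDSS2 (3.33 ± 0.106), DHODH (2.64 ± 0.0969) and GCH1 (1.73 ± 0.214). Among neighbours in that order, the libraries of PDSS1 and PTS overlapped and the others did not. GCH1, the enzyme that commits GTP to tetrahydrobiopterin, was thus the least abundant of the 10 in untreated cells, and at 40 mM that place was taken by DHODH (1.55 ± 0.179). The authors' FPKM divide by a length close to that of all GENCODE 29 exons of a gene merged (within 5% for 84.6% of 13094 genes). For PTS this merged length is 3130 bases against 1069 for its longest annotated transcript, and for QDPR 3059 against 1648. With the same reads divided by the length of the longest transcript, PTS would stand at 34.9 and QDPR at 40.4 FPKM, both above SPR at 23.7. Reads in exons outside that transcript were kept, so these values may be too high. The top of the order thus depends on the length used. In differences of 1 gene between doses the length cancels, and counting under another gene model was not tested.

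**Figure D1:**
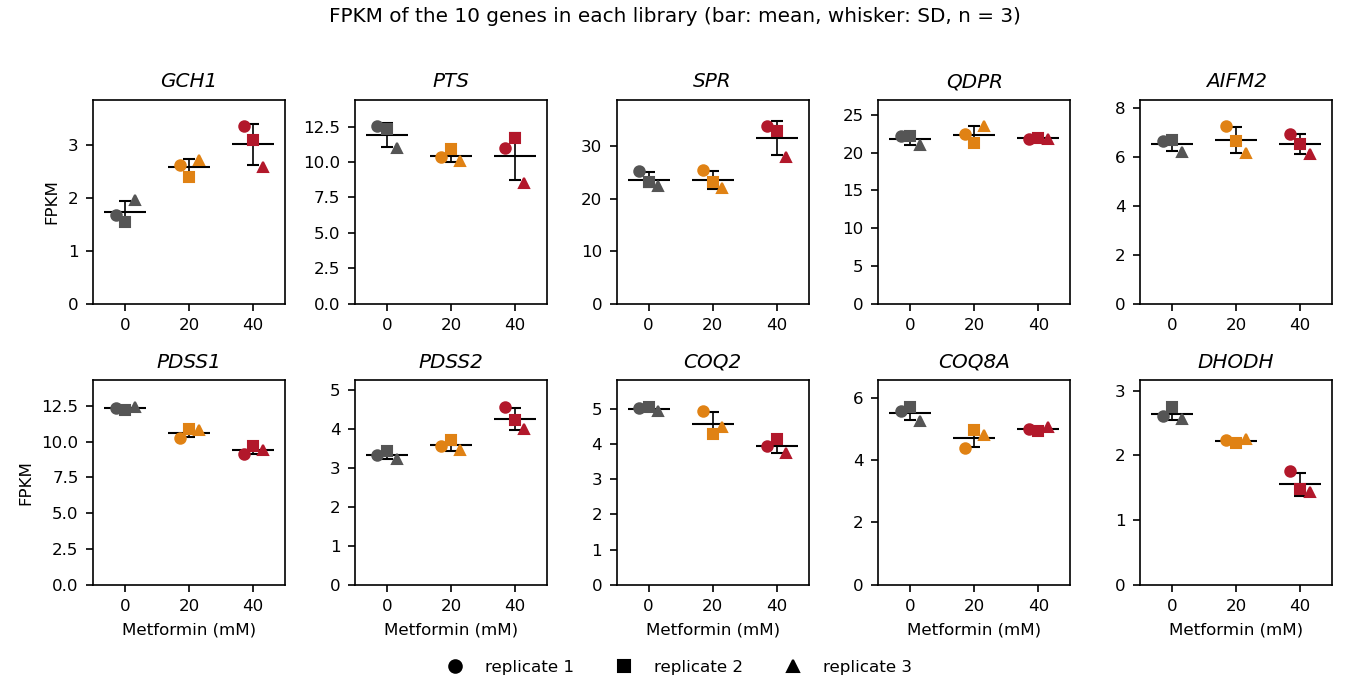
FPKM (vertical axes, each from 0) of the 10 genes at 0, 20 and 40 mM metformin, with 1 symbol per library (circle, square and triangle for replicates 1, 2 and 3), the mean as a bar and the SD as a whisker. GCH1, SPR and PDSS2 sit highest at 40 mM, PDSS1, COQ2 and DHODH sit lowest there, and AIFM2 and QDPR keep overlapping levels.

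In the tetrahydrobiopterin branch the 2 ends of the synthesis moved up, GCH1 at both doses and SPR at the higher dose, while PTS and QDPR did not pass the test. GCH1 (ENSG00000131979, chromosome 14, 54842008 to 54902826 in the deposited table) was at 1.67, 1.55 and 1.96 FPKM untreated, 2.62, 2.39 and 2.71 with 20 mM, and 3.34, 3.09 and 2.58 with 40 mM. Every treated library lay above every untreated one, and the 20 and 40 mM groups overlapped through replicate 3 of 40 mM, the lowest of its group. The log2 fold change ± SE was 0.57 ± 0.13 at 20 mM (edgeR adjusted p = 0.0083) and 0.76 ± 0.13 at 40 mM (adjusted p = 0.00061), a level 1.48 and 1.69 times that of untreated cells. Between 40 and 20 mM the change was 0.19 ± 0.13 (adjusted p = 0.3, 95% interval -0.10 to 0.48). Its counts, 375 to 828, were the lowest of the 10 genes in each library, and 1 left-out library moved the change at 40 mM between 0.68 and 0.86.

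SPR, sepiapterin reductase, which carries out the last reduction of the synthesis (ENSG00000116096, chromosome 2, 72887382 to 72892158), was at 25.4, 23.3 and 22.4 FPKM untreated and 25.5, 23.3 and 22.04 with 20 mM. With 40 mM it reached 33.8, 33.0 and 27.9 FPKM. The untreated and 20 mM libraries covered nearly the same range and all 3 libraries at 40 mM lay above both. SPR rose at 40 mM against 0 mM (0.38 ± 0.08, edgeR adjusted p = 0.0024) and against 20 mM (0.39 ± 0.08, adjusted p = 0.0056), and its change at 20 mM was -0.01 ± 0.08 (adjusted p = 0.95, interval -0.19 to 0.17).

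PTS, which makes the intermediate between GCH1 and SPR (ENSG00000150787, chromosome 11, 112226367 to 112236006), was at 12.5, 12.3 and 10.96 FPKM untreated, 10.3, 10.95 and 10.1 with 20 mM, and 11.0, 11.7 and 8.51 with 40 mM. The 20 mM libraries all lay below the untreated ones, and the 40 mM libraries ranged over both groups, with replicate 3 the lowest. Its change was -0.19 ± 0.10 at 20 mM (edgeR adjusted p = 0.18) and -0.23 ± 0.10 at 40 mM (adjusted p = 0.073), neither past the threshold. The calls for PTS turned on single settings. It was called at 20 mM without replicate 3 of 40 mM (-0.19, adjusted p = 0.028), a library that counts here only because all 9 share 1 dispersion estimate, and with only the 6 libraries compared (adjusted p = 0.034). It was called at 40 mM without replicate 2 of 40 mM (-0.32, adjusted p = 0.024) and with DESeq2 (-0.24, adjusted p = 0.041). Without replicate 3 of 40 mM the change at 40 against 0 mM was smaller (-0.11, adjusted p = 0.19), and that at 40 against 20 mM was 0.08, against -0.04 with it.

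QDPR, which returns the oxidised cofactor to tetrahydrobiopterin (ENSG00000151552, chromosome 4, 17460261 to 17512090), stayed between 20.9 and 23.4 FPKM in all 9 libraries. Its change was 0.04 ± 0.05 at 20 mM (edgeR adjusted p = 0.6) and -0.03 ± 0.05 at 40 mM (adjusted p = 0.66). The 95% intervals, -0.07 to 0.14 and -0.13 to 0.08, were the narrowest of the 10 genes.

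Of the enzymes that reduce ubiquinone, AIFM2 showed no difference past the threshold at either dose and DHODH fell with dose. AIFM2 (ENSG00000042286, chromosome 10, 70098223 to 70132934) was at 6.67, 6.68 and 6.20 FPKM untreated, 7.26, 6.65 and 6.18 with 20 mM, and 6.96, 6.55 and 6.11 with 40 mM. The 3 groups overlapped throughout. Its change was 0.04 ± 0.07 at 20 mM (edgeR adjusted p = 0.73, 95% interval -0.12 to 0.19) and -0.03 ± 0.07 at 40 mM (adjusted p = 0.75, interval -0.18 to 0.13). AIFM2 overlaps MACROH2A2 on the opposite strand over 14060 bases, and the sources used here do not state the strand used in counting, so reads of this neighbour (mean 2.45 FPKM) cannot be told apart from its own where exons overlap.

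DHODH (ENSG00000102967, chromosome 16, 72008588 to 72027664) was at 2.62, 2.75 and 2.56 FPKM untreated, 2.24, 2.20 and 2.25 with 20 mM, and 1.76, 1.47 and 1.43 with 40 mM. The 3 groups did not overlap and followed the order of dose. The fall at 40 mM was the largest change of the 10 genes (-0.80 ± 0.09, edgeR adjusted p = 2e-05), to 0.576 of the untreated level. A fall was also called between 20 and 40 mM (-0.55 ± 0.09, adjusted p = 0.0011). On the log2(FPKM + 1) scale of limma, which understates changes of low genes, these falls were -0.51 and -0.34 and remained called. The step from 0 to 20 mM (-0.25 ± 0.08, adjusted p = 0.046) lay at the threshold. It was no longer called without any 1 of the libraries at 0 or 20 mM or without replicate 2 of 40 mM (adjusted p from 0.051 to 0.14), with limma on log2(FPKM + 1) or log2(FPKM + 0.1) (adjusted p = 0.052 and 0.067), with library totals as the only scaling (adjusted p = 0.058) or with no filter (adjusted p = 0.12). In bulk RNA, fewer cells of a kind and less RNA per cell cannot be told apart.

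The genes of the ubiquinone tail moved against each other: PDSS1 fell and PDSS2 rose, although their products form a single enzyme. PDSS1 (ENSG00000148459, chromosome 10, 26697701 to 26746798) was at 12.4, 12.2 and 12.4 FPKM untreated, 10.3, 10.9 and 10.8 with 20 mM, and 9.16, 9.72 and 9.40 with 40 mM. The groups did not overlap. PDSS1 fell by 0.22 ± 0.06 at 20 mM (edgeR adjusted p = 0.014, which became 0.055 when replicate 1 of 20 mM was left out) and by 0.42 ± 0.06 at 40 mM (adjusted p = 9.4e-05).

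PDSS2 (ENSG00000164494, chromosome 6, 107152562 to 107459564) was at 3.33, 3.43 and 3.22 FPKM untreated, 3.55, 3.72 and 3.45 with 20 mM, and 4.56, 4.22 and 4.002 with 40 mM. The groups did not overlap here either, in the opposite order. PDSS2 rose at 40 mM (0.32 ± 0.07, edgeR adjusted p = 0.0032), and its change at 20 mM was 0.10 ± 0.07 (adjusted p = 0.33).

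Within each library PDSS1 stood at 3.72, 3.56 and 3.86 times PDSS2 in FPKM at 0 mM, at 2.89, 2.92 and 3.13 times at 20 mM, and at 2.01, 2.30 and 2.35 times at 40 mM. The mean ratio was 3.71 ± 0.15, 2.98 ± 0.128 and 2.22 ± 0.184, and the groups were separate at every step. Library scaling does not enter this ratio. Its log2 difference was -0.74 at 40 against 0 mM (two-sided exact permutation p = 0.1, the smallest that 3 against 3 libraries allow). The same p was reached at 20 against 0 mM (-0.32) and at 40 against 20 mM (-0.43). Because the groups of each gene were already separate and in opposite order, the ratio had to separate with this p. The ratio is therefore a description and adds no evidence to the tests of each gene. PDSS1 overlaps ABI1 on the opposite strand by 206 bases.

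**Figure D2:**
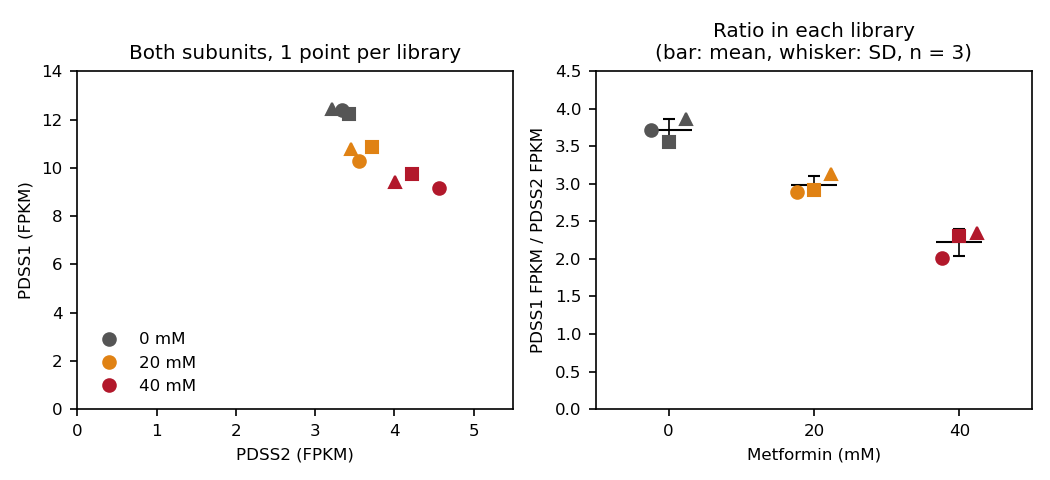
Left, PDSS1 against PDSS2 in FPKM, 1 point per library coloured by dose. Right, the ratio of PDSS1 to PDSS2 FPKM in each library by metformin dose in mM, with the mean as a bar and the SD as a whisker. The points move down and to the right with dose and the mean ratio goes from 3.71 to 2.22.

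COQ2, which attaches the tail to the ring (ENSG00000173085, chromosome 4, 83261536 to 83284914), was at 5.03, 5.06 and 4.94 FPKM untreated, 4.96, 4.28 and 4.48 with 20 mM, and 3.94, 4.15 and 3.76 with 40 mM. The 40 mM libraries lay below all others and the 20 mM group overlapped the untreated one through replicate 1. COQ2 fell at 40 mM (-0.38 ± 0.08, edgeR adjusted p = 0.0024), with -0.13 ± 0.08 at 20 mM (adjusted p = 0.24).

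COQ8A (ENSG00000163050, chromosome 1, 226897536 to 226987545) was at 5.58, 5.70 and 5.25 FPKM untreated, 4.39, 4.96 and 4.79 with 20 mM, and 5.01, 4.92 and 5.05 with 40 mM. Both treated groups lay below the untreated one and overlapped each other. It fell at 20 mM (-0.23 ± 0.06, edgeR adjusted p = 0.0099) and at 40 mM (-0.18 ± 0.06, adjusted p = 0.019), with 0.05 ± 0.06 between them (adjusted p = 0.51). The call at 40 mM was lost without replicate 1 (-0.16, adjusted p = 0.065) or 2 (-0.15, adjusted p = 0.07) of 0 mM, without replicate 2 of 40 mM (-0.16, adjusted p = 0.056), with library totals as the only scaling (-0.12, adjusted p = 0.077) and with limma on log2(FPKM + 1) or log2(FPKM + 0.1) (-0.12 and -0.14, adjusted p = 0.064 for both).

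Counted together, 1 of the 10 genes rose (GCH1) and 3 fell (DHODH, PDSS1 and COQ8A) at 20 against 0 mM, in a comparison that called 31.6% of the 12394 genes tested (16.3% higher and 15.2% lower). At 40 against 0 mM 3 rose (GCH1, SPR and PDSS2) and 4 fell (DHODH, PDSS1, COQ2 and COQ8A), beside 56.2% of all tested genes (28.8% higher and 27.4% lower). At 40 against 20 mM 2 rose (SPR and PDSS2) and 3 fell (DHODH, PDSS1 and COQ2), beside 29.3% (14.3% higher and 15.1% lower). The calls of PDSS1, PDSS2 and COQ2 in that last comparison depended on single libraries. PDSS1 lost its call without replicate 2 or 3 of 20 mM or replicate 1 of 40 mM (adjusted p from 0.056 to 0.073). PDSS2 kept its call only without replicate 3 of 40 mM, with adjusted p from 0.052 to 0.15 without any other library. COQ2 kept its call only without replicate 2 of 20 mM, with adjusted p from 0.053 to 0.16 without any other. The median log2 fold change of the 10 genes was -0.07, -0.10 and -0.05 in the 3 comparisons, against 0.00 over all tested genes in each. The median size of change was 0.16, 0.35 and 0.20 against 0.15, 0.24 and 0.14. The groups did not overlap in 6, 7 and 5 of the 10 genes, where 50.5%, 61.1% and 43.9% of all tested genes did not overlap. The comparisons with 0 mM share the same untreated libraries.

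**Figure D3:**
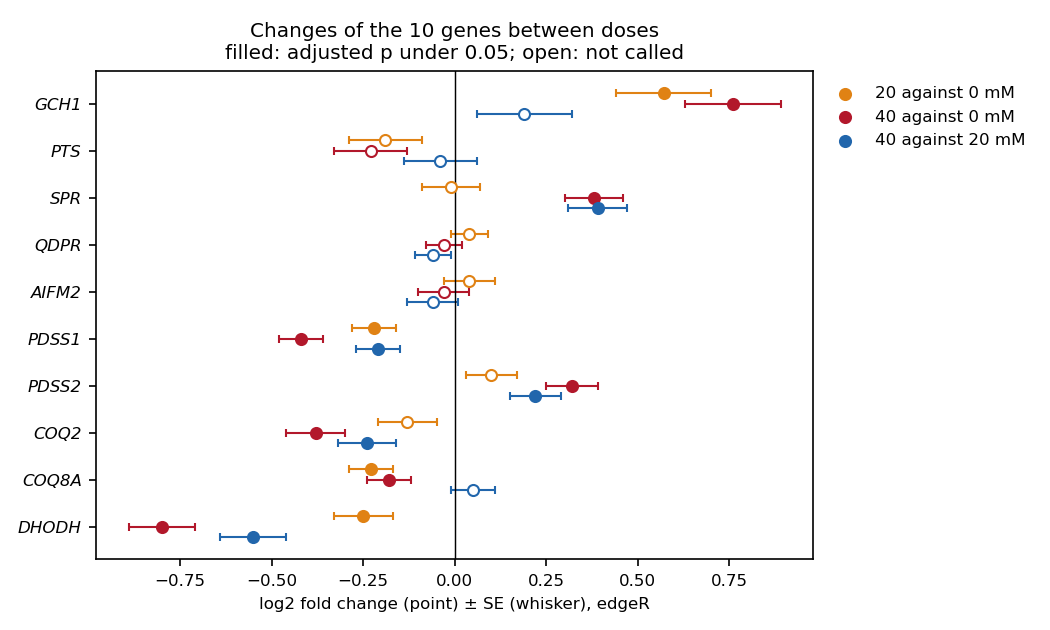
Log2 fold change (point) and SE (whisker) of the 10 genes at 20 against 0 mM, 40 against 0 mM and 40 against 20 mM from edgeR, with filled points for an adjusted p under 0.05. GCH1 lies farthest to the right at 0.76 and DHODH farthest to the left at -0.80, both at 40 against 0 mM, and AIFM2 and QDPR straddle 0 with open points.

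Other genes of the same pathways were read from lists of 16, 13 and 14 genes. Among 16 further genes of ubiquinone synthesis, its regulation and transport, all tested, 0 rose and 3 fell at 20 mM (COQ8B, HPDL and FDXR, median -0.08), and 2 rose and 8 fell at 40 mM (median -0.14). COQ10B was among those that rose, and COQ5, COQ7, COQ8B, COQ9 and PARL fell beside the 3 genes described next. COQ5 (-0.31, edgeR adjusted p = 0.0011) and COQ8B (-0.25, adjusted p = 0.0048) lay well under the threshold. COQ7 (-0.22, adjusted p = 0.029, groups overlapping), COQ9 (-0.14, adjusted p = 0.033) and PARL (-0.27, adjusted p = 0.043) lay nearer to it. How each of these calls fares under the alternatives was not examined. HPDL, which makes a precursor of the ubiquinone ring, had the largest fall, from 5.44 ± 0.436 to 3.54 ± 0.231 FPKM at 40 mM (-0.66 ± 0.10, edgeR adjusted p = 0.00028). FDXR, the reductase that feeds electrons to the hydroxylase COQ6, went from 4.76 ± 0.161 to 3.19 ± 0.199 FPKM (-0.61 ± 0.08, adjusted p = 6.8e-05). COQ6 itself was called at -0.34 ± 0.11 (adjusted p = 0.026), a call lost when replicate 1 or 2 of 0 mM (adjusted p = 0.052 and 0.11) or replicate 3 of 40 mM (-0.22, adjusted p = 0.07) was left out. It was also lost with no filter, library totals, limma or only 6 libraries (adjusted p from 0.052 to 0.058). COQ10B, a ubiquinone-binding lipid carrier, rose from 6.98 ± 0.433 to 8.86 ± 1.12 FPKM (0.31 ± 0.09), a call lost when replicate 2 of 40 mM was left out (0.25, adjusted p = 0.052).

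For tetrahydrobiopterin 11 of the 13 other genes were analysed and 5 were tested. At 20 mM 1 rose (PCBD1) and 2 fell, CBR1 among them (median -0.20), and at 40 mM 1 rose and 3 fell (median -0.16). AGMO, a tetrahydrobiopterin-dependent monooxygenase of ether lipids, fell by 0.58 ± 0.15 at 40 mM (edgeR adjusted p = 0.0057) and the carbonyl reductase CBR1 by 0.16 ± 0.05 (adjusted p = 0.02). The CBR1 call was lost without replicate 2 of 0 mM (adjusted p = 0.074), without replicate 2 of 40 mM (adjusted p = 0.064), with library totals only (-0.11, adjusted p = 0.095) and with limma (adjusted p up to 0.055). PCBD1, the dehydratase that acts before QDPR in cofactor recycling, rose from 12.0 ± 1.43 to 17.1 ± 1.17 FPKM (0.48 ± 0.09, adjusted p = 0.00084). GCHFR, the feedback regulator of GCH1, was at 0.31 ± 0.20 (adjusted p = 0.22).

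Of 14 quinone reductases, FSP1 partners and pyrimidine genes 10 were tested, and 1 rose (NQO1) and 1 fell (the myristoyltransferase NMT1) at 20 mM, with a median of 0.00. Both calls lay near the threshold (NQO1 0.21 ± 0.07, edgeR adjusted p = 0.042, and NMT1 -0.12 ± 0.04, adjusted p = 0.036). Neither NQO1 nor NMT1 was called at 40 against 0 mM (adjusted p = 0.094 and 0.11). At 40 mM 1 rose and 1 fell (median -0.07). These were the quinone reductase NQO2 (0.24 ± 0.08, edgeR adjusted p = 0.023) and CAD, which carries the steps of pyrimidine synthesis before DHODH (-0.22 ± 0.04, adjusted p = 0.00056). CAD went from 20.8 ± 0.504 to 18.2 ± 0.255 FPKM. The NQO2 call was lost without replicate 2 (adjusted p = 0.087) or 3 (adjusted p = 0.08) of 0 mM, without replicate 2 of 40 mM (0.17, adjusted p = 0.1), with no filter (adjusted p = 0.079) and with only 6 libraries (adjusted p = 0.051). UMPS, the step after DHODH, was at -0.20 ± 0.09 (adjusted p = 0.082). Across the 3 lists 8 of 31 tested genes were called at 20 mM, 16 at 40 mM and 5 between the doses (1 higher and 4 lower, with COQ5, COQ9 and CAD among the lower), beside the shares of all tested genes above.

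**Figure D4:**
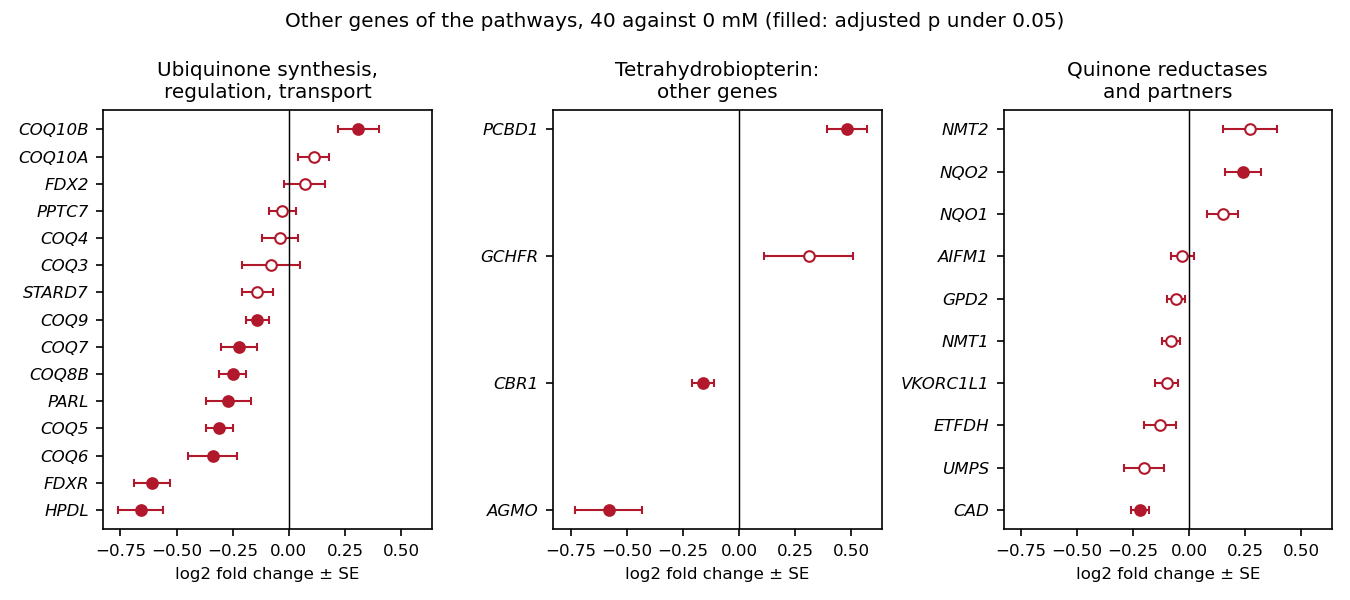
Log2 fold change (point) and SE (whisker) at 40 against 0 mM for the tested genes of the other pathway lists that are reported here, with filled points for an edgeR adjusted p under 0.05. HPDL (-0.66) and FDXR (-0.61) lead the falls in the first panel and AGMO (-0.58) in the second, and most points of the third panel are open.

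Genes with the most similar course were found by the smallest root mean square distance of log2 CPM (counts scaled to library size), centred on the untreated mean, over 9 libraries and among 6983 genes with a mean of at least 5 FPKM. For GCH1 they were IRF2BP2 (0.096), CLIC4 (0.099) and the amino acid transporter SLC38A2 (0.101). For DHODH they were CLN6 (0.080), the histone chaperone subunit SUPT16H (0.095) and the separase gene ESPL1 (0.097). For AIFM2 they were GTF2F2 (0.037), MYOF (0.042) and METTL2B (0.047). These distances are descriptions of 9 libraries that share dose and scaling.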

How the data were processed

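Polyadenylated RNA of A375 cells was sequenced from strand-specific paired-end libraries, per the labels' protocols. The authors deposited raw counts and FPKM for each gene and library in 1 table, per the file headers. Among the tools was StringTie 2.1.6, per the submitters' processing notes. The sources used here do not state the aligner, build, annotation, counting strand or filters. The ratio of count to FPKM was constant over libraries within 1% for 98.8% of 13149 genes, so both carry the same reads.

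The edgeR quasi-likelihood test (edgeR 4.0.16, R 4.3.3) was run on counts with TMM scaling and all 9 libraries in 1 fit, over the 12394 genes that averaged 1 FPKM or more, holding 98.74% of counts. A gene was called at a Benjamini-Hochberg adjusted p under 0.05 over all tested genes. The SE is the size of the log2 fold change over the square root of F. Intervals cover 95% and use the fit's degrees of freedom. The test was tested on simulated data with known changes. Total counts of 65738242 to 75629413 per library set the depth.

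Members, lists and tests were chosen with earlier results of these data known. Every member is named, and from each other list up to 4 members called at 40 against 0 mM by size of change. GCHFR (regulator of GCH1), UMPS (step after DHODH) and genes named only to spell out a count were added after their values were seen. Some members of the other lists are counted but not reported by name here, and others were not analysed here. Alternatives were other filters (none, or 5 FPKM), median-of-ratios or total-count scaling, DESeq2 1.42.0, limma 3.58.1 on log2 FPKM with pseudocounts of 1 and 0.1, only the 6 libraries compared, a replicate block, a threshold of 0.01, and each library left out. No pair of libraries held identical counts.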

Additional observations from a re-analysis of the deposited data

How the results depend on the processing

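At 40 against 0 mM the calls of GCH1, SPR, PDSS2, DHODH, PDSS1 and COQ2 held at a threshold of 0.05 under every alternative in which the gene was tested, with adjusted p up to 0.0039, 0.012, 0.016, 0.00026, 0.00064 and 0.0098. So did GCH1 (up to 0.039) and COQ8A (up to 0.044) at 20 against 0 mM, and DHODH (up to 0.0067) and SPR (up to 0.028) at 40 against 20 mM. Members called (4, 7 and 5 of 10 at 20 against 0, 40 against 0 and 40 against 20 mM) became 2, 3 and 2 with a filter at 5 FPKM, which left 6 members to test, and 2 for both 20 against 0 and 40 against 20 mM at a threshold of 0.01. At 40 against 20 mM there were 3 with no filter and 3 with only the 6 libraries compared, and the cause was not tested. With 1 library left out they ran from 2 (without replicate 1 of 20 mM) to 5, from 6 to 7, and from 2 to 4, where only the 4 without replicate 3 of 40 mM lay near the 5 called with all 9.

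Other pathway genes called (8, 16 and 5 of 31) became 5 and 10 at 20 and 40 against 0 mM with the filter at 5 FPKM, which left 23, and 3, 9 and 2 at a threshold of 0.01. With no filter they were 5 at 20 against 0 mM and 3 at 40 against 20 mM, and with only 6 libraries 13 and 3, and the cause was not tested. With 1 library left out they ran from 4 (without replicate 1 or 2 of 20 mM) to 12, from 11 to 17, and from 3 to 10 (without replicate 3 of 40 mM).

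All signs that reversed were of genes not called, and the cause was not tested. SPR at 20 against 0 mM was 0.01 with the filter at 5 FPKM and with library totals, and ran from -0.07 to 0.05 with 1 library left out. AIFM2 at 20 against 0 mM ran from -0.03 to 0.09 and at 40 against 0 mM from -0.08 to 0.01 in the same way, and the latter was 0.02 with library totals and 0.00 with limma at both pseudocounts. QDPR at 40 against 0 mM was 0.03 with library totals and 0.01 with limma at both. PTS at 40 against 20 mM ran from -0.13 to 0.08.

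With the replicate block 4, 8 and 4 members and 8, 18 and 5 other genes were called. Among members the block changed the calls of PTS at 40 against 0 mM (-0.24, adjusted p = 0.015) and COQ2 at 40 against 20 mM (adjusted p = 0.053). Over all tested genes the block called 34.3%, 58.2% and 32.1%, where the fit without it called 31.6%, 56.2% and 29.3%. Same-numbered libraries did not deviate together in every pair (r from -0.101 to 0.186 over 9 pairs). Pairs of other numbers had r from -0.191 to 0.124. With 3 libraries per dose these values cannot decide whether the numbers pair the libraries. The best match of a library in another dose had its own number in 7 of 18 cases.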

Other observations

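Genes of the lists that averaged under 1 FPKM and were not tested are given here by counts. The tetrahydrobiopterin-dependent enzymes TH, which makes the melanin and catecholamine precursor dopa, and NOS2, the inducible nitric oxide synthase, had 80 to 211 and 55 to 174 counts per library. TPH1 had 8 to 58 counts, NOS3 0 to 34 and TPH2 0 to 8. AIFM3, a homologue of AIFM2, had 14, 30 and 30 counts untreated, 85, 80 and 49 with 20 mM, and 112, 124 and 102 with 40 mM, so its groups did not overlap, whereas those of AIFM2 did. That separation was picked after its values were seen and was not tested. At 40 against 0 mM the FPKM of NOS2 and TPH1 (lower at 40 mM) and of NOS3 and SQOR (higher) did not overlap either. The counts of NOS3 and SQOR did overlap, and the nearest FPKM of NOS3 were 0.0202 (0 mM) and 0.0208 (40 mM). Among all tested genes, which unlike these averaged at least 1 FPKM, 61.1% did not overlap in that comparison. PCBD2, a paralogue of PCBD1, had 415 to 698 counts. The mitochondrial ubiquinone reducers SQOR, PRODH and CHDH had 141 to 280, 51 to 129 and 0 to 14 counts.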
